A study of Rattus norvegicus with 3 samples.

Results

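The rat major histocompatibility complex (MHC, named RT1) and the interferon response were examined in cultured tendon stem/progenitor cells (TSPCs) through 87 probe sets for 64 genes, of 31042 probe sets measured. A probe set was a member when the platform's table gave it a single gene symbol that starts with RT1- or names an MHC partner, an immunoproteasome subunit, a STAT or IRF factor or an interferon-stimulated gene from a fixed pattern of symbols (the rule uses no signals, although it was drawn up with earlier results of these data known). TSPCs were isolated from the Achilles tendon of Sprague-Dawley rats aged 1 day (TSPCs-1d), 7 days (TSPCs-7d) and 56 days (TSPCs-56d), grown in low glucose medium with fetal bovine serum and antibiotics, and used at passage 2 without any further treatment. No genetic change is named for any group. Each culture was pooled from at least 2 animals, and 1 Affymetrix Rat Genome 230 2.0 array was hybridized for each age. Because a single array stands for each age, differences have no check by replicates, p-values are not given, and age, animals and array cannot be told apart. The haplotypes of the animals are not given, and *RT1* class I genes vary much between haplotypes.

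MHC class I molecules, a heavy chain bound to beta-2-microglobulin, display peptides from the cell's own proteins to cytotoxic T cells. The peptides are cut by the proteasome, of which an immune form carries exchanged catalytic subunits, and are carried into the endoplasmic reticulum by the TAP transporter. MHC class II molecules display peptides from engulfed proteins and are made mainly by macrophages, dendritic cells and B cells, although other cells can make them under interferon-gamma. Interferons bind receptors on the cell surface and act through JAK kinases and STAT factors. Type I interferon signals reach a promoter element called ISRE, and interferon-gamma signals an element called GAS. Fibroblast-like cells such as tendon cells carry class I molecules and respond to both kinds of interferon.

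To show where these elements lie, promoters were taken from RefSeq (assembly GRCr8, 250 bases before to 50 after the gene start), in which 53 of the member genes have an entry. The ISRE core was searched on both strands as GAAA, then any 2 bases, then GAAA. GAS was searched as TTC, then any 3 bases, then GAA, which reads the same on both strands. The promoters below belong to 4 genes that passed the 2-fold cutoff described further on, and to *Psmb9*, which lies close to *Psmb8* in the RT1 region and did not pass it. Capitals mark matches, and all other bases are in lower case.
Ifitm3, GRCr8 chr1:205541709-205542008, strand -: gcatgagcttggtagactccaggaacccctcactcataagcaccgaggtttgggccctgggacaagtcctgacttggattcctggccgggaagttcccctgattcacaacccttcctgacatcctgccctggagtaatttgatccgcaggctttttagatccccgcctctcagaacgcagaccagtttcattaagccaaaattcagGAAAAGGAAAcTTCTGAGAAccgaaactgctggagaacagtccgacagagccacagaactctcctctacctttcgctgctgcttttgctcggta
Psmb8, GRCr8 chr20:4656982-4657281, strand -: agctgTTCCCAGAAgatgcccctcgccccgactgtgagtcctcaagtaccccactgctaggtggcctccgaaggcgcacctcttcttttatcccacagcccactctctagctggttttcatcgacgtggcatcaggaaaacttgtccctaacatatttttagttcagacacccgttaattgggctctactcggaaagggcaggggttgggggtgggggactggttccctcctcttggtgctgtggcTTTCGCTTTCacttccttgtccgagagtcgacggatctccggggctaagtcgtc
Gbp2, GRCr8 chr2:234005477-234005776, strand +: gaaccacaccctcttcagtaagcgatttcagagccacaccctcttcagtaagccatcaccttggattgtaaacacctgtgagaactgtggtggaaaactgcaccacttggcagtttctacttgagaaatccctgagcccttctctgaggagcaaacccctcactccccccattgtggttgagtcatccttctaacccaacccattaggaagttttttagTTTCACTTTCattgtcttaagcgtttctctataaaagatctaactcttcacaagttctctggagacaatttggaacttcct
RT1-T24-4, GRCr8 chr20:2689083-2689382, strand +: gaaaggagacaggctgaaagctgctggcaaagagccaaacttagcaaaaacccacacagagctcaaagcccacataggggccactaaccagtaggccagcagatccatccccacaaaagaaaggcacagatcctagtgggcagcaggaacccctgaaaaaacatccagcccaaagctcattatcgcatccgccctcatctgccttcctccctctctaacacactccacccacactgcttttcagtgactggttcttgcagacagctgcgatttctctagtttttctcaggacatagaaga
Psmb9, GRCr8 chr20:4668750-4669049, strand +: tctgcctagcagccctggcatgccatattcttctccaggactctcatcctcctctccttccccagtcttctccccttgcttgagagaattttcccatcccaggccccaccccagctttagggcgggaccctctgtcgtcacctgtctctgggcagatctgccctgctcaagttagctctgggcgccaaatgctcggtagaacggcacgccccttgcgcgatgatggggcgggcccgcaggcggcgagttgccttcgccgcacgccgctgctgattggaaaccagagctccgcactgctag

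In the *Ifitm3* promoter the ISRE core began at -44 and a GAS match at -33, counted from the gene start, without overlap. *Psmb8* had an ISRE core match on the opposite strand at -4 and a GAS match at -245, and *Gbp2* had an ISRE core match on the opposite strand at -31. The windows of *RT1-T24-4* and *Psmb9* held neither run of letters. Among the 53 member promoters, 25 (47.2%) held the ISRE core, against 3.77% of all 27457 promoters, and 11 (20.8%) held GAS, against 8.68%. The rule picks genes of the interferon response by name, so such an excess could be foreseen and is no result of the arrays. The ISRE core was found in 4 of 4 genes of beta-2-microglobulin and peptide loading and in 3 of 5 genes of the immunoproteasome and its activator. Among class I heavy chains and other *RT1* genes 2 of 11 held it, among STAT and IRF factors 1 of 7, and in the class II group 0 of 6. Of the other genes past the cutoff, *Gbp7* held 1 ISRE core and 2 GAS matches in a promoter that is not shown, and for *Ifit2* and *Ifitm1* no promoter was used here. The median log2 ratio of TSPCs-56d over TSPCs-1d was 0.26 for the 25 genes with an ISRE core and 0.32 for the 28 without. In TSPCs-56d over TSPCs-7d the order was the opposite, with 0.32 for the genes with an ISRE core and 0.14 for those without.

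The arrays had median signals of 107.2 for TSPCs-1d, 108 for TSPCs-7d and 114.5 for TSPCs-56d, on a linear intensity scale. A signal was called dim when it was under 48.9, which is the 25th percentile over the arrays, and a fold change against a dim signal is given as "at least", with that signal raised to 48.9. As a guide to noise, paired probe sets of the same gene, both brighter than the median, were compared in 1714 genes, and 10% of the pairs differed in log2 ratio by more than 0.39 for TSPCs-7d over TSPCs-1d, 0.44 for TSPCs-56d over TSPCs-7d and 0.53 for TSPCs-56d over TSPCs-1d. Among markers of tendon cells, the tendon transcription factor gene *Scx* had signals of 2255, 2578 and 2569 at 1, 7 and 56 days of age, and the collagen gene *Col1a1* 14491, 14736 and 14286. Of the other tendon markers, *Tnmd* had 543, 351 and 158 and was lowest in TSPCs-56d, whereas *Dcn* had 22.4, 49.4 and 607, *Thbs4* 76.5, 339.6 and 348 and *Fmod* 271, 774 and 408, all lowest in TSPCs-1d. The pan-leukocyte gene *Ptprc* (20.8, 24.96 and 30.6) was dim on all arrays, whereas some other leukocyte genes, given further on, were brighter. Of 5 endothelial genes, 3 were dim on all arrays, among them *Pecam1* (23.3, 18.0 and 22.9), while *Kdr* (84.9, 85.2 and 83.8) and *Tek* (67.4, 70.3 and 80.4) were above the dim level on each.

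As a group, the members were at similar levels in TSPCs-7d and TSPCs-1d and somewhat higher in TSPCs-56d than in both. The genes past the cutoff on the signals as deposited were *Ifit2*, *Ifitm1*, *Ifitm3*, *Psmb8*, *RT1-T24-4*, *Gbp2* and *Gbp7*, all with their highest signal in the oldest culture. *Ifitm1* did not pass once its dim signals were raised. In TSPCs-7d over TSPCs-1d, 0 of 87 probe sets passed the cutoff of 2-fold upward and 0 downward, against 1.36% and 0.989% of all probe sets. In TSPCs-56d over TSPCs-7d, 4 (4.6%) were higher and 0 lower, against 1.31% and 1.68%. In TSPCs-56d over TSPCs-1d, 7 (8.05%) were higher and 0 lower, against 1.52% and 1.8%. With dim signals raised to 48.9, 3 were higher and 0 lower in TSPCs-56d over TSPCs-7d, against 0.918% and 1.18% of all probe sets, and 6 were higher and 0 lower in TSPCs-56d over TSPCs-1d, against 1.09% and 1.24%. In TSPCs-7d over TSPCs-1d both counts stayed at 0, against 1.04% and 0.631%. Any 2 of these comparisons share an array.

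Below the cutoff, members also lay more often above a ratio of 1 once TSPCs-56d was compared. In TSPCs-56d over TSPCs-1d, 64 of 87 member ratios (73.6%) were above 1, against 56.7% over all probe sets, and the median log2 ratio was 0.26, against 0.05. In TSPCs-56d over TSPCs-7d these figures were 66 (75.9%) against 56.3%, and 0.24 against 0.05. In TSPCs-7d over TSPCs-1d they were 46 (52.9%) against 51.1%, and 0.02 against 0.01. Of the 87, 54 (62.1%) had their highest signal in TSPCs-56d, against 43.3% of all probe sets, and 32 (36.8%) were higher at each step of age, against 23.6%. Of the members, 18 were dim on all arrays and 58 on none. In TSPCs, as in any bulk sample, more or fewer cells that express a gene and more or less RNA per cell cannot be told apart.

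**Figure D1:**
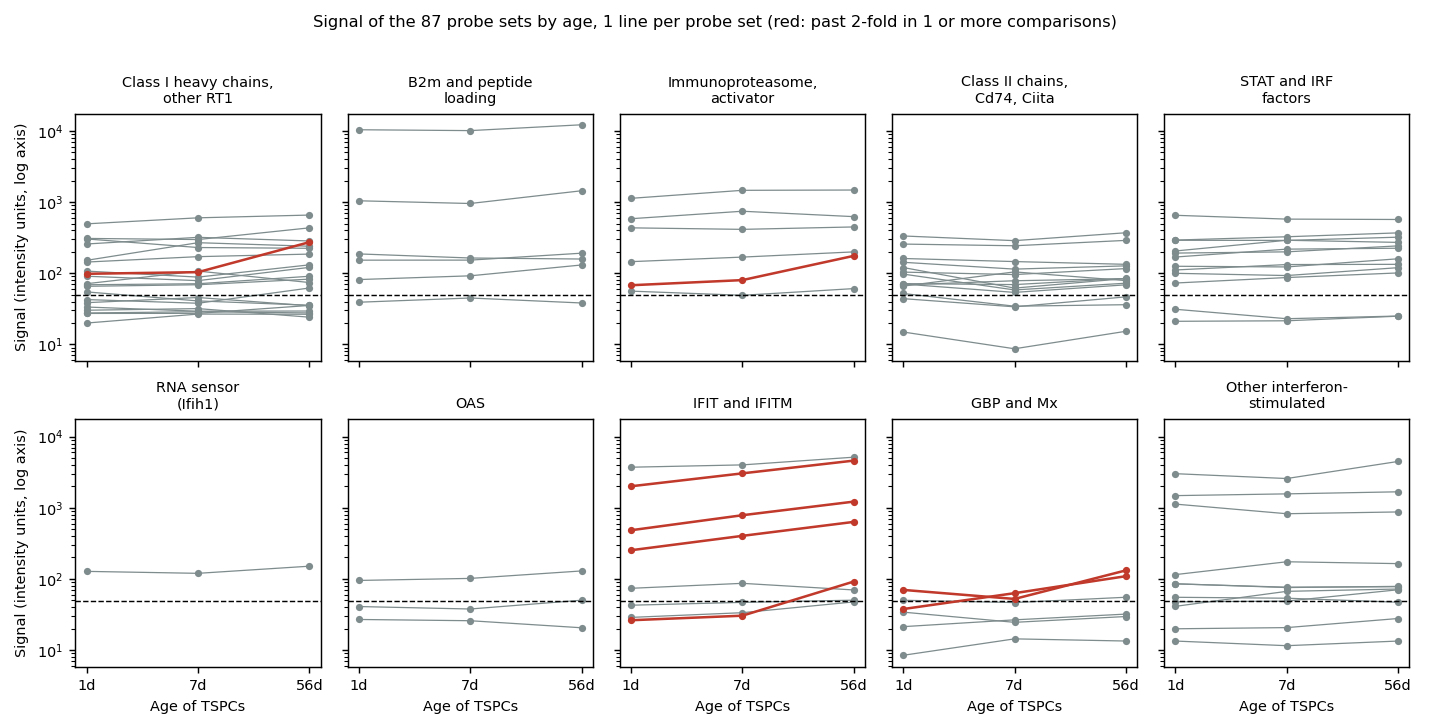
Signal (intensity units, log axis) of each of the 87 probe sets (1 line each) at 1, 7 and 56 days of age, in 10 panels by the role of the protein, with a dashed line at 48.9. Lines in red passed 2-fold on deposited signals in at least 1 comparison, and all of these are highest in TSPCs-56d.

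The IFIT and IFITM families bind foreign RNA or block the entry of viruses at membranes. Of 8 probe sets, 4 were more than 2-fold higher at 56 days than at 1 day as deposited, against 1.52% of all probe sets. With dim signals raised 3 of 8 were, against 1.09%. Both counts include the 2 probe sets of *Ifit2*. Higher at each step of age were 7 of 8, against 23.6%. *Ifit2*, which binds viral RNA, had signals of 483, 785 and 1220.1 at 1, 7 and 56 days of age in one probe set and 253, 403 and 633 in the other. Both probe sets placed TSPCs-56d highest and TSPCs-7d between the others. The ratio of TSPCs-56d over TSPCs-1d was 2.53 and 2.51, that of TSPCs-7d over TSPCs-1d 1.63 and 1.59, and that of TSPCs-56d over TSPCs-7d 1.55 and 1.57. Its RefSeq neighbours did not pass the cutoff. *Ifit1* had signals of 42.6, 46.7 and 50.1, all close to the dim level, and *Ifit3* 73.6, 86.5 and 69.8, highest in TSPCs-7d.

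*Ifitm3*, which encodes a membrane protein that restricts virus entry from endosomes, had signals of 2005, 3047 and 4607. It was 2.30-fold higher at 56 days than at 1 day, again with TSPCs-7d between them (1.52-fold over TSPCs-1d). The probe set of *Ifitm3* is one that can detect several transcripts of a gene. *Ifitm2* had signals of 3719, 4009 and 5145 (1.38-fold). *Ifitm1* had 26.2, 30.3 and 91.7, so it was bright enough to read in TSPCs-56d alone and at least 1.88-fold higher there than in either younger culture, which is under the cutoff. Its ratio of signals as deposited was 3.50 over TSPCs-1d and 3.02 over TSPCs-7d. The related *Ifitm10*, with 28.7, 33.4 and 47.4, was dim throughout. All 4 *Ifitm* probe sets were higher at each step of age, and the median log2 ratio of TSPCs-56d over TSPCs-1d over both families was 0.96. *Ifitm1*, *Ifitm2* and *Ifitm3* lie next to one another in RefSeq, and short probes can cross-hybridize within such families, which was not tested.

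**Figure D2:**
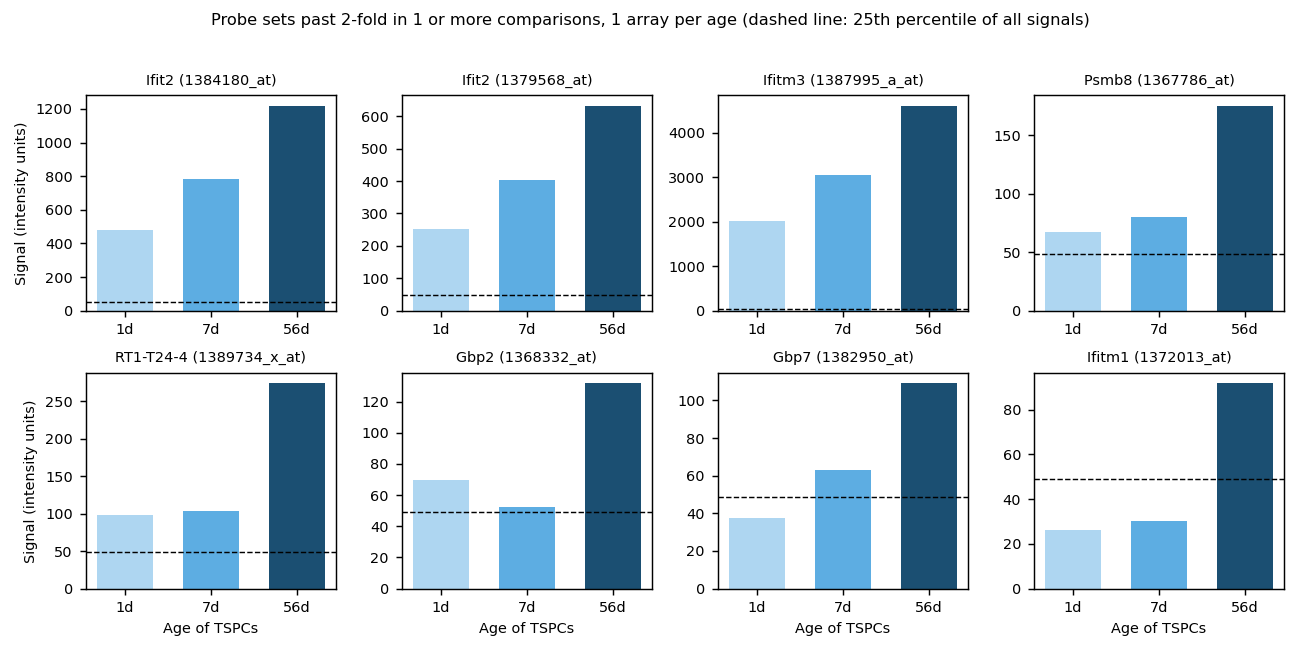
Signal (intensity units, linear axes from 0) of the 8 probe sets past 2-fold on deposited signals in at least 1 comparison, 1 bar per array for TSPCs-1d, TSPCs-7d and TSPCs-56d, with a dashed line at 48.9. In both *Ifit2* probe sets and in *Ifitm3* the bars step up with age, whereas in *Psmb8*, *RT1-T24-4* and *Gbp2* the TSPCs-56d bar alone stands apart.

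The guanylate-binding proteins are interferon-gamma-induced GTPases that attack the vacuoles of microbes. *Gbp2* had signals of 69.9, 52.2 and 132 and was 2.52-fold higher at 56 days than at 7 days, and 1.88-fold higher than in TSPCs-1d, short of the cutoff. *Gbp7* had 37.6, 62.9 and 109, dim in TSPCs-1d, and was at least 2.23-fold higher in TSPCs-56d. *Gbp4*, which lies with them in RefSeq, had 34.03, 24.5 and 29.5, dim on all arrays. The Mx GTPases, which trap virus particles, were also dim or nearly so, with 21.3, 26.5 and 31.9 for *Mx1* and 50.01, 46.4 and 55.1 and 8.41, 14.3 and 13.3 for the probe sets of *Mx2*.

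In the immunoproteasome, *Psmb8* stood apart from its partners. It encodes the catalytic subunit LMP7 and had signals of 67.8, 80.0 and 176, low in TSPCs-1d and TSPCs-7d and higher in TSPCs-56d (2.59-fold and 2.19-fold). *Psmb9*, the subunit LMP2, had 146, 169 and 199.6, a ratio of 1.37 for TSPCs-56d over TSPCs-1d, and *Psmb10*, the third exchanged subunit, 435, 414 and 448. The genes of the activator ring PA28, *Psme1* and *Psme2*, had 1131, 1467 and 1480.5 and 585, 745 and 625. *Psme2* was highest in TSPCs-7d. For *Psme1* the ratio of TSPCs-56d over TSPCs-7d was 1.01. Dividing each array by its median turned this log2 ratio to -0.07, so its highest array is not settled. The second *Psme1* probe set was close to the dim level throughout (56.0, 48.9 and 60.8).

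The constitutive proteasome had slightly lower signals in TSPCs-56d than in TSPCs-7d. Of 15 genes of its standard subunits, assembly factor and regulators, 15 had lower signals at 56 days than at 7 days. Over all 14217 genes, 6160 were lower. The ratios of the 15 genes ran from 0.868 to 0.989. Of them 0 passed the cutoff, against 1.72% upward and 2.1% downward of all genes. Over all 19 probe sets of the 15 genes, 17 were lower. In the same comparison, 5 of 6 probe sets of the immunoproteasome and its activator were higher, against 56.3% of all probe sets. With each array divided by its median 4 of 6 were higher, against 45.6%. Apart from *Psmb8*, the ratios in the brightest probe sets were 1.18 for *Psmb9*, 1.08 for *Psmb10*, 1.01 for *Psme1* and 0.84 for *Psme2*. Against TSPCs-1d, 13 of the 15 genes were lower in TSPCs-56d, with a median log2 ratio of -0.15. Over all 14217 genes, 5977 were lower, with a median of 0.06. Of the immunoproteasome and its activator, 6 of 6 probe sets were higher, with a median of 0.25. Over all probe sets these figures were 56.7% and 0.05. Apart from *Psmb8*, the log2 ratios of these genes in their brightest probe sets were below the levels given above for paired probe sets. With each array divided by its median, 15 of the 15 genes were lower at 56 days than at 1 day and 5 of the 6 probe sets higher, and with quantile normalization 14 of the 15 genes were lower in each comparison with TSPCs-56d.

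Genes of the class I light chain and of peptide loading showed small differences in signal. *B2m*, which encodes beta-2-microglobulin, the light chain of every class I molecule, had signals of 10431, 10143 and 12253 in one probe set and 1045, 957 and 1446 in the other. Both were highest in TSPCs-56d, by 1.17-fold and 1.38-fold over TSPCs-1d. The transporter gene *Tap1* had 187, 164 and 158 and, in a second probe set that was dim on all arrays, 39.1, 44.8 and 38.2. Its partner *Tap2* had 81.5, 92.0 and 131 (1.60-fold higher at 56 days than at 1 day), and *Tapbp*, which encodes the loading factor tapasin, 153, 153 and 191. *Tap1*, *Psmb8*, *Psmb9* and *Tap2* lie close together in RefSeq, and only *Psmb8* passed the cutoff.

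Of 20 probe sets for 12 *RT1* genes outside class II, 6 were dim on all arrays, against 20.8% of all probe sets. In TSPCs-56d over TSPCs-1d, 15 had ratios above 1, against 56.7%. With each array divided by its median or with quantile normalization 13 did, against 44.4% and 51.0%. In the same comparison as deposited 1 was more than 2-fold higher, against 1.52%. That 1 was *RT1-T24-4*, a class I gene, with 98.2, 104 and 274. It was 2.79-fold higher at 56 days than at 1 day and 2.64-fold higher than in TSPCs-7d. Its probes are of a design that can match other genes of a family, and the neighbouring *RT1-T24-3* had 90.8, 78.7 and 121, short of the cutoff. *RT1-M3-1*, whose mouse counterpart presents N-formyl peptides of bacteria, had 309, 298 and 435 (1.41-fold higher at 56 days than at 1 day).

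The probe sets of the *RT1-CE* genes, class I genes of the *RT1-C/E* region, differed in direction. Those bright on all arrays are of a design that can match other genes of a family, so a direction cannot be assigned to a single gene. For *RT1-CE12*, *RT1-CE10* and *RT1-CE16* the log2 ratios of TSPCs-56d over TSPCs-1d were 0.41, 0.14 and -0.44. All of them lay within the level of 0.53 given above for paired probe sets. *RT1-CE12* had 495, 602 and 658, *RT1-CE10* 258, 319.9 and 284 and *RT1-CE16* 304, 229.9 and 224, so the last was lower in both older cultures (1.35-fold in TSPCs-56d). The 5 probe sets of *RT1-CE5* gave log2 ratios of TSPCs-56d over TSPCs-1d between -0.62 and 0.66, and only 1 of them (152, 269 and 239.9) was bright on all arrays. *RT1-A* had 107.2, 88.2 and 131, the brighter probe set of *RT1-A3* 68.8, 71.2 and 90.7, *RT1-N3* 71.3, 107.3 and 74.0 and the brightest of 4 probe sets of *RT1-S3* 144, 171 and 186, whereas *RT1-N2* (30.2, 31.8 and 24.1) was dim.

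A further 6 probe sets are assigned to several *RT1* genes each and were therefore no members. The probe set assigned to *RT1-A3* and *RT1-A2* jointly had signals of 115, 248 and 545 and was 4.72-fold higher at 56 days than at 1 day. This ratio exceeded that of every member, and it was 2.14 for TSPCs-7d over TSPCs-1d and 2.20 for TSPCs-56d over TSPCs-7d. It cannot be read as either gene. It was singled out after its values were seen. The probe set assigned to *RT1-T24-3* and *RT1-T24-4* jointly had 29.5, 23.2 and 23.8, dim on all arrays and highest in TSPCs-1d. The remaining *RT1* probe sets of this kind had ratios of TSPCs-56d over TSPCs-1d from 1.09 to 1.55 as deposited.

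The class II group had its lowest signals in TSPCs-7d. Of 14 probe sets for 8 genes, 12 were lower at 7 days than at 1 day and 11 were lowest at 7 days. However, 0 passed the cutoff in any comparison, where at most 1.52% of all probe sets passed upward and 1.8% downward. Over all 31042 probe sets, 15167 were lower at 7 days than at 1 day. Lowest in TSPCs-7d were 32.6% of all probe sets and 39.1% of the members. *RT1-Da*, the alpha chain of the DR-like molecule, had 120.4, 61.8 and 84.3, high in TSPCs-1d and 1.95-fold lower in TSPCs-7d. Its beta chain gene *RT1-Db1* had 97.3, 58.2 and 72.4 (1.67-fold lower) and, in a dim probe set, 14.9, 8.66 and 15.3. The probe sets of the DQ-like chains disagreed: the brightest of 4 of *RT1-Ba* had 334, 287 and 371, and those of *RT1-Bb* 65.9, 104 and 78.8 and 51.9, 34.4 and 36.1.

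*Cd74*, which encodes the invariant chain that guides class II molecules to endosomes, had 143, 114.3 and 127, also lowest in TSPCs-7d (1.25-fold below TSPCs-1d). *Ciita*, the master activator of class II transcription, had 70.5, 53.8 and 68.7 and 43.9, 33.7 and 46.5, low on all arrays. *RT1-DMa* (161, 146 and 133) and *RT1-DMb* (104, 95.8 and 116) encode the exchange factor that loads peptides, and their signals varied little. The median log2 ratio of the class II group was -0.27 in TSPCs-7d over TSPCs-1d, against 0.01 over all probe sets, and 0.06 in TSPCs-56d over TSPCs-1d, against 0.05. Dividing each array by its median turned the 56-day over 1-day median to -0.04, so it has no settled direction, whereas 12 of 14 stayed lower in TSPCs-7d over TSPCs-1d under both rescalings.

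Markers of immune cells did not all follow one order. For comparison, 6765 of all 14217 genes were lower at 7 days than at 1 day. Of 12 measured genes of leukocytes and macrophages, 9 were lower at 7 days than at 1 day and 5 were dim on all arrays, and their summed signal was 939 at 1 day, 899 at 7 days and 1086 at 56 days. Of 8 lymphocyte genes, 7 were lower in TSPCs-7d, with sums of 444, 325 and 472, and 4 of these genes were dim on all arrays. *Cd4*, the coreceptor of helper T cells that rat macrophages also carry, had 127, 45.2 and 106, the widest difference of the lymphocyte list. *Ptprc*, *Itgam* and *Cd3e* were dim on all arrays, and *Csf1r* had 76.9, 76.5 and 78.8. Brighter genes of the leukocyte and macrophage list were *Aif1* (209, 188 and 267), *Cd14* (162, 157 and 155), *Cd68* (122, 109 and 143) and *Lyz2* (115, 138 and 198). Of 5 dendritic cell genes, 0 were dim on all arrays and 3 were higher at 7 days than at 1 day, with sums of 322, 377 and 367. The part of immune cells in the class II values was not tested.

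Lysosomal proteases, which trim the invariant chain and antigens but also serve general turnover of proteins, were lowest in TSPCs-7d. All 5 measured genes (*Ctss*, *Ctsl*, *Ctsb*, *Ctsd* and *Lgmn*) were lowest in TSPCs-7d, by 1.16-fold to 1.62-fold against TSPCs-1d, and the ratios of TSPCs-56d over TSPCs-7d ran from 1.14 to 1.59. The legumain gene *Lgmn* had 2964, 1826 and 2899 and the cathepsin gene *Ctsl* 8127, 6307 and 8083. Over all 7 of their probe sets, 6 were lowest in TSPCs-7d, against 32.6% of all probe sets. The 5 genes belong to a list of 13 genes of class II control and lysosomal proteases. In TSPCs-7d over TSPCs-1d, 9 genes of this list were lower and 4 higher. Those higher were the control genes *Nfya* (1.38-fold), *Nfyc* (1.23-fold), *Rfx5* (1.17-fold) and *Creb1* (1.02-fold). *Ifi30*, a member that encodes the lysosomal thiol reductase of class II processing, had 1126, 824 and 873, highest in TSPCs-1d.

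**Figure D3:**
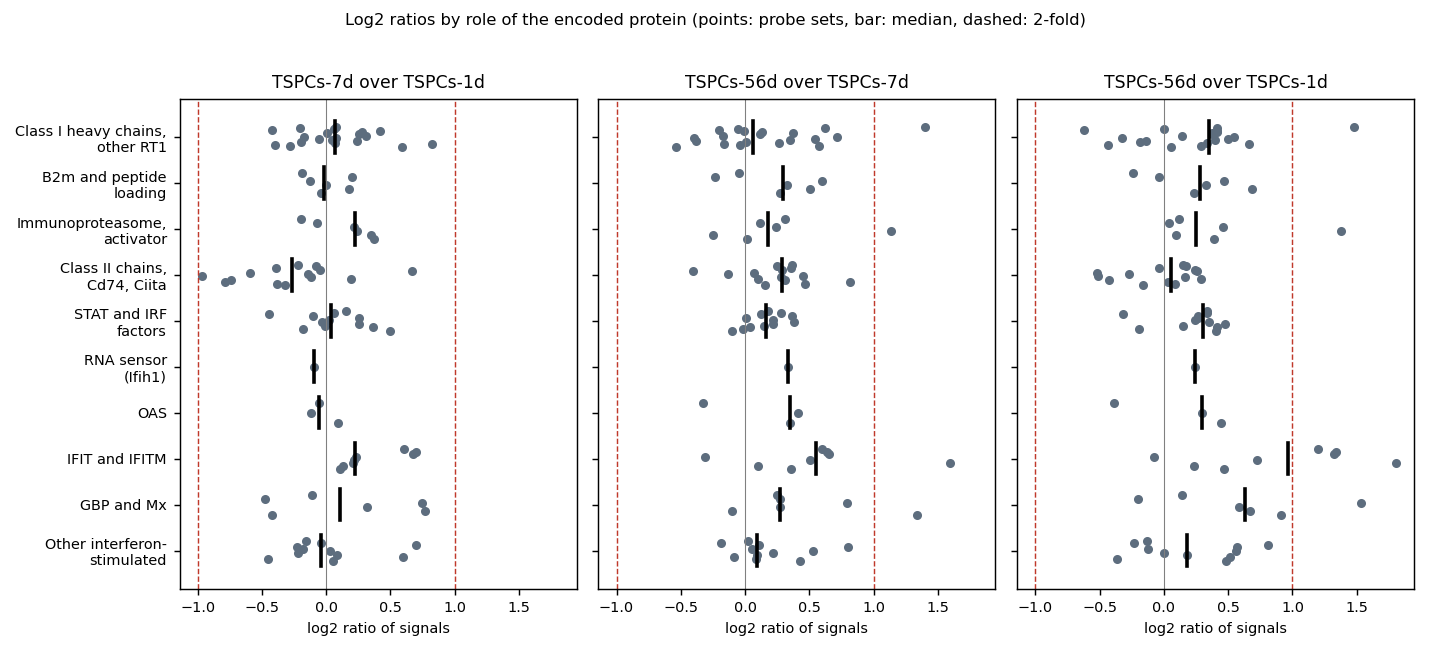
Log2 ratio of signals for each member probe set (1 point) by role of the protein, in TSPCs-7d over TSPCs-1d, TSPCs-56d over TSPCs-7d and TSPCs-56d over TSPCs-1d, with a black bar at the median and dashed lines at 2-fold. The median of the class II group is -0.27 in the left panel, and that of the IFIT and IFITM families is 0.96 in the right panel.

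The transcription factors of the interferon response differed little. Of 12 probe sets for 8 STAT and IRF genes, 0 passed the cutoff in any comparison. At most 1.52% of all probe sets passed upward and 1.8% downward, so 0 of 12 does not set these genes apart. Higher at 56 days than at 1 day were 10, against 56.7% of all probe sets. Their median log2 ratio was 0.30, against 0.05. *Irf1*, an activator of class I and immunoproteasome genes, had 206, 291 and 272 (1.42-fold higher at 7 days than at 1 day). *Irf9* and *Stat2*, parts of the factor that binds the ISRE, had 111, 132 and 133 and 291, 289.5 and 322 in their brighter probe sets. *Irf3*, which triggers the first wave of type I interferon, had 653, 577 and 570.3, and *Irf7*, its inducible relative, 99.8, 92.8 and 119.8. *Irf2* (293, 326 and 369.7 in its only bright probe set) and *Irf5* (125, 123 and 159.7) were highest in TSPCs-56d. *Irf8*, best known from myeloid cells, had 169, 218 and 225. Its ratio of TSPCs-56d over TSPCs-7d was 1.03. Dividing each array by its median turned this log2 ratio to -0.04, so its highest array is not settled.

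Several of the genes most often used as interferon signatures had signals below the array medians. *Isg15*, a ubiquitin-like modifier, had 85.4, 75.5 and 78.4, *Rsad2*, which encodes viperin, 19.8, 20.6 and 27.7, and *Oasl*, of the oligoadenylate synthetase family, 40.8, 37.7 and 50.1. Of these, *Isg15* was highest in TSPCs-1d and the others in TSPCs-56d. *Usp18*, the protease that removes ISG15, had 41.0, 66.7 and 71.95 and was at least 1.47-fold higher at 56 days than at 1 day, where it was dim. *Oas1a* (95.01, 101 and 129) was 1.36-fold higher at 56 days than at 1 day, *Oas1b* (26.8, 25.8 and 20.5) was dim, and *Ifih1*, the RNA sensor MDA5, had 127, 119.6 and 151. *Bst2* (tetherin) had 84.9, 76.3 and 77.6, *Isg20* 55.1, 53.4 and 46.9, *Ifi44* 47.5, 48.6 and 70.3 and *Ifi44l* 13.3, 11.5 and 13.3.

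The other members with an interferon-related name were brighter. *Ifi27* had 3016, 2577 and 4482, highest in TSPCs-56d (1.74-fold over TSPCs-7d and 1.49-fold over TSPCs-1d). Its RefSeq neighbour *Ifi27l2b* had 1482, 1568 and 1677, within 1.13-fold. *Ifi35* had 115, 174 and 164, higher in both older cultures than in TSPCs-1d. The other interferon-stimulated genes have 11 probe sets, those of *Isg15*, *Rsad2*, *Usp18*, *Bst2*, *Isg20*, *Ifi44*, *Ifi44l* and *Ifi30* included. Of the 11, 0 passed the cutoff in any comparison, where at most 1.52% of all probe sets passed upward and 1.8% downward. Their median log2 ratio of TSPCs-56d over TSPCs-1d was 0.18, against 0.05.

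Of the 15 member genes with more than 1 probe set, all probe sets of a gene lay on the same side of a ratio of 1 for 6 genes in TSPCs-7d over TSPCs-1d, for 11 in TSPCs-56d over TSPCs-7d and for 10 in TSPCs-56d over TSPCs-1d. The other 49 genes rest on a single probe set. Among the 7 genes past the cutoff, *Ifit2* alone had more than 1 member probe set.

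Outside the members, 89 genes of the same pathways were measured. On the signals as deposited, 1 was more than 2-fold higher and 1 lower in TSPCs-7d over TSPCs-1d, against 1.87% and 1.08% of all 14217 genes. In TSPCs-56d over TSPCs-7d 1 was higher and 1 lower, against 1.72% and 2.1%, and in TSPCs-56d over TSPCs-1d 2 were higher and 1 lower, against 2.0% and 1.77%, so that few genes of these lists passed in any comparison. Those higher at 56 days than at 1 day as deposited were *Sp100*, an interferon-induced nuclear body gene, with 210.3, 288 and 457, and *Herc6*, which in mouse encodes the ligase of ISG15, with 21.9, 20.4 and 56.5. *Herc6*, also the 1 gene counted as higher over TSPCs-7d, was dim in both younger cultures and is at least 1.16-fold higher in TSPCs-56d with these signals raised, which is under the cutoff. The chemokine gene *Ccl5* was lower, with 186, 60.6 and 51.7, high in TSPCs-1d alone (3.07-fold lower in TSPCs-7d and 3.60-fold in TSPCs-56d). *Jak2*, the kinase of the interferon-gamma receptor, had 212, 985 and 338, high in TSPCs-7d alone, and so passed upward in TSPCs-7d over TSPCs-1d and downward in TSPCs-56d over TSPCs-7d.

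The receptors of interferon were higher in TSPCs-56d by small steps in their brightest probe sets, but not in all. In the brightest probe set of each gene, all 6 receptor chains were higher at each step of age, by 1.41-fold to 1.89-fold for TSPCs-56d over TSPCs-1d. *Ifngr1*, the ligand-binding chain for interferon-gamma, had 726, 1064 and 1374, *Ifnar2*, of the type I receptor, 256, 312 and 369, and *Il10rb*, shared by the type III receptor, 592, 609 and 875. Over all 13 probe sets of these genes, 7 were higher at each step and 9 were higher at 56 days than at 1 day. The 6 of *Ifnar1* did not agree in direction. The dimmer probe set of *Ifnar2* had 125, 116 and 118, highest in TSPCs-1d, and that of *Ifngr2* 150, 189 and 167, highest in TSPCs-7d. The ligand genes *Ifnb1* (32.1, 35.5 and 36.8) and *Ifng* (29.2, 35.0 and 36.3) were dim on all arrays.

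Of 24 other interferon-induced genes, 19 (79.2%) were higher at 56 days than at 1 day, against 57.9% of all genes. The median log2 ratio was 0.35, against 0.06. Of these and the lists below, *Irgm*, *Ube2l6*, *Erap1* and *Nlrc5* are named after their values were seen. The GTPase gene *Irgm* had 110.2, 163 and 207 (1.88-fold) and *Ube2l6*, the conjugating enzyme of ISG15, 152, 231 and 254 (1.67-fold). The sensors and adaptors (12 genes) had a median log2 ratio of 0.07, and the chaperones and other class I assembly genes (7 genes) of -0.04, with 0 past the cutoff in either list. *Erap1*, the peptidase that trims class I peptides, had 1175, 1417 and 1848 and 709.6, 933 and 1306 in its bright probe sets, higher at each step in both. *Nlrc5*, the activator of class I transcription, was dim with 24.5, 25.6 and 23.8.

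**Figure D4:**
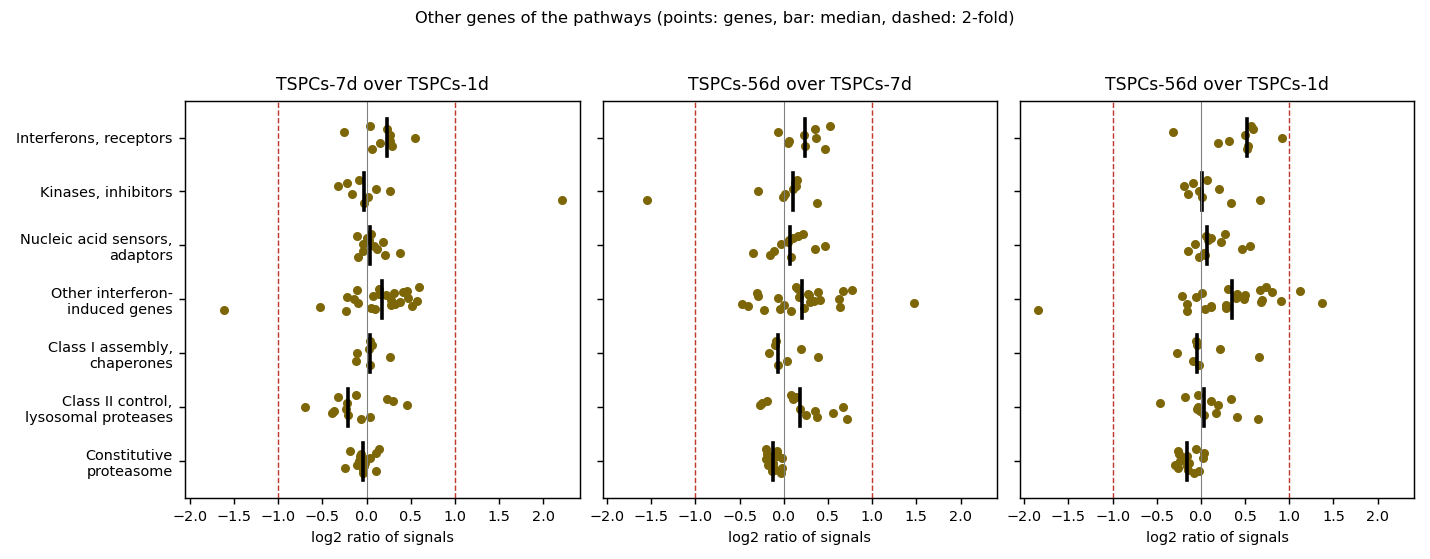
Log2 ratio of signals for 89 further genes of these pathways (1 point each, the probe set that was brightest on average) in TSPCs-7d over TSPCs-1d, TSPCs-56d over TSPCs-7d and TSPCs-56d over TSPCs-1d, with a black bar at the median of each list and dashed lines at 2-fold. The constitutive proteasome lies below 0 in TSPCs-56d over TSPCs-7d, and 8 of the 9 interferons and receptors lie above 0 in TSPCs-56d over TSPCs-1d.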

How the data were processed

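Cultured TSPCs of rats aged 1, 7 and 56 days were measured on 3 Affymetrix arrays, 1 per age. The deposited values are a linear signal intensity for each of 31042 probe sets, which the authors normalized with MAS5 and RMA according to the methods, while the submitters' processing notes name MAS5 alone. How the methods were combined, and the centring, are not given in the sources used here, and detection calls were not analysed here. Signals were divided as deposited, later age by earlier age, with the cutoff of 2 named in the methods (a ratio over 2 or under 0.5). No test was possible with 1 array per age, and the number of arrays limits the precision.

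Gene names came from the platform's table, which gives 1 symbol for 20826 probe sets, several for 436 and none for 9780. Of the 64 member genes, 63 have a gene ID in the RefSeq table of assembly GRCr8, used for names, neighbours and promoters. Members, gene lists and the naming rule were all chosen with earlier results of these data known. Named are the genes past 2-fold, the genes of the highest mean signal in each role group and the defining members. Pathway genes with several probe sets are given by the brightest one on average. The alternatives tried were median scaling of the arrays, quantile normalization, a floor at the 25th percentile (48.9) or the median (110.1) of all signals, a pseudocount of 32, leaving out probe sets shared between transcripts (17 of 87), and 1 probe set a gene. The calculation was tested on simulated data. Calculations ran in Python 3.11.15 (pandas 2.3.3, numpy 2.4.6) and plots in matplotlib 3.10.9.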

Additional observations from a re-analysis of the deposited data

How the results depend on the processing

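No paired analysis was possible because there is 1 array per age, and for the same reason no array could be left out. Dividing each array by its median or quantile normalization left the counts of members past 2-fold at 0, 4 and 7 higher and 0 lower in TSPCs-7d over TSPCs-1d, TSPCs-56d over TSPCs-7d and TSPCs-56d over TSPCs-1d. Dividing by the median lowered the median log2 ratio of TSPCs-56d over TSPCs-1d to 0.17, and that of all probe sets to -0.04. After this scaling 59 members (67.8%) had ratios above 1, against 44.4% of all probe sets. It also turned the median of the class I heavy chains and other *RT1* genes in TSPCs-56d over TSPCs-7d to -0.02, against 0.06 as deposited.

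The treatment of low signals changed the counts, by raising or diluting them. With a floor at the median of all signals, 1 member was more than 2-fold higher at 56 days than at 7 days (*RT1-T24-4*) and 4 probe sets than at 1 day (both of *Ifit2*, *Ifitm3* and *RT1-T24-4*), and the median log2 ratio was 0.00 in each of these comparisons. With a pseudocount of 32, 1 member (*RT1-T24-4*) was more than 2-fold higher at 56 days than at 7 days. With a floor at the 25th percentile, *Ifitm1* was no longer counted, 3 members were higher in TSPCs-56d over TSPCs-7d and 6 in TSPCs-56d over TSPCs-1d, and the median log2 ratio of TSPCs-56d over TSPCs-7d was 0.11. Without shared probe sets, *RT1-T24-4* and *Ifitm3* left the counts, and no member past 2-fold changed direction under any alternative. Dim signals, 1 array per age and single probe sets for most genes limit these values.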
